A study of Homo sapiens with 6 samples.

Results

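The mRNAs of 8 genes that write, maintain or remove 5-methylcytosine were compared in A375SM melanoma cells: DNMT1, UHRF1, DNMT3A, DNMT3B, TET1, TET2, TET3 and TDG. They were listed by name, with no threshold on measured values, out of 40895 gene identifiers with counts, and all 8 were among the 15954 genes that passed the filter on low counts. PolyA RNA of 3 shPRAME libraries, from cells carrying a short hairpin RNA against PRAME, was set against 3 shCtrl libraries, from cells carrying a control hairpin. PRAME encodes a cancer-testis antigen, and the comparison asks what a lower PRAME level goes with in this line, derived from the human melanoma line A375 and metastatic. Both groups are labelled wild type and batch 1, and both carry a hairpin, so that no library is of cells without one. The sources used here do not give the hairpin sequences or their number, nor whether transductions were separate or the cells are 1 clone, and p-values measure only the spread between libraries, which may be technical.

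Cytosine methylation in vertebrates sits almost entirely at CpG sites and is copied at each cell division. UHRF1 binds hemimethylated CpG behind the replication fork and recruits DNMT1, which methylates the new strand, while DNMT3A and DNMT3B set methylation at sites that had none. The TET dioxygenases TET1, TET2 and TET3 oxidise 5-methylcytosine, and the glycosylase TDG cuts out the most oxidised forms, so that base excision repair puts back an unmodified cytosine. Melanomas are known for low 5-hydroxymethylcytosine, the first TET product, and for methylation changes at many promoters. Only mRNA was measured here, not methylation, protein or enzyme activity.

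Libraries held 30842788, 33848375 and 33854545 counts in shPRAME and 34107332, 33439537 and 31525186 in shCtrl, so that a count of 0 in 1 library allows up to 3 counts, or 0.0880 to 0.0973 CPM (counts scaled to the library's depth). PRAME mRNA had 1803, 1993 and 1857 counts in shPRAME and 5623, 5356 and 5083 in shCtrl, a log2 fold change of -1.55. Nuclear ribosomal RNA took 2.06% to 3.14% of counts in shPRAME and 4.61% to 4.99% in shCtrl. Of 10 melanocytic markers, SOX10 (275 ± 1.48 CPM in shPRAME, 266 ± 7.95 in shCtrl) and CSPG4 (562 ± 10.4 and 813 ± 42.9) were the highest, while the pigmentation markers PMEL, MLANA, TYR, DCT and TYRP1 were at or near 0 in both groups. The summed level of these 10 was 929.8 to 952.1 CPM in shPRAME and 1144 to 1234 CPM in shCtrl, lower mostly through CSPG4. The other tested markers moved both ways. MITF (37.7 ± 0.740 CPM in shPRAME, 44.6 ± 1.38 in shCtrl) and S100B (28.2 ± 1.26 and 54.0 ± 0.629) were lower. MIA (37.0 ± 0.993 and 25.2 ± 1.27) was higher. KRT5, KRT1 and TP63 of keratinocytes, CD3E and NKG7 of leukocytes and CDH5 of endothelium had no count in any library. Another keratinocyte marker, KRT10, was present in both groups, at 23.4 ± 0.613 CPM in shPRAME and 28.2 ± 1.08 CPM in shCtrl. KRT14 had 21 counts over the shPRAME libraries and 32 over the shCtrl libraries, and DSG3 had 1 and 0. Of the other markers of leukocytes and endothelium, some rose and some stayed low in both groups. CD14 had 20 counts over the shPRAME libraries and 22 over the shCtrl libraries, PECAM1 had 17 and 24, VWF 13 and 10, and KDR 34 and 29. PTPRC had 92 counts over the shPRAME libraries and 0 over the shCtrl libraries, LYZ had 131 and 7, and TEK had 281 and 3, while CD68 stood at 70.7 ± 0.767 CPM in shPRAME and 43.9 ± 1.16 CPM in shCtrl. Of 8 fibroblast markers 7 were tested, of which 5 rose at least 2-fold, as did 1616 of all 15954 tested genes, and 2 fell. Tested markers near 0 in shCtrl passed the filter on low counts through shPRAME alone, so these counts are no measure of the list. The summed level of the 8 fibroblast markers was 88.1 to 95.3 CPM in shPRAME and 113 to 116 CPM in shCtrl. It was lower through the 2 that fell, PDGFRB (17.4 ± 1.32 CPM in shPRAME, 64.3 ± 1.86 in shCtrl) and FAP (26.99 ± 0.771 and 46.1 ± 1.202). COL1A2 had 2157 counts over the shPRAME libraries and 0 over the shCtrl libraries, and LUM had 992 and 1; both, like PTPRC, are named after their values were seen. The 7 leukocyte markers summed to 72.4 to 74.3 CPM in shPRAME and 43.05 to 45.4 CPM in shCtrl. The 6 keratinocyte markers, nearly all through KRT10, summed to 23.2 to 24.4 CPM in shPRAME and 27.7 to 29.6 CPM in shCtrl. The 5 endothelial markers summed to 3.01 to 3.85 CPM and 0.292 to 0.947 CPM. The part of these shifts in the results below was not tested, and in bulk RNA a change in the share of cells that express a gene cannot be told apart from a change in its RNA per cell.

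The writing and erasing genes differed between the groups by small amounts, in both directions. Of them, DNMT3B, TET3, TET1, TDG and DNMT1, were higher in shPRAME, DNMT3A and TET2 were lower, and UHRF1 did not pass. DNMT3B was 1.59-fold higher, TET3 1.45-fold and TET1 1.32-fold, an order that changed when the shift of neighbouring genes was taken out. A gene passed at a Benjamini-Hochberg adjusted p under 0.05 in the edgeR quasi-likelihood test over all tested genes. By this rule 7 of 8 passed, beside 74.4% of all tested genes, 37.7% higher and 36.8% lower. The groups did not overlap at 7 of 8, beside 76.5% of all tested genes. None of the 8 changed at least 2-fold, a size that 18.6% of all tested genes reached. The median absolute log2 fold change was 0.20 over the 8 genes and 0.38 over all tested genes, and the medians with sign were 0.16 and 0.01. Against a minimum fold of 1.2, 3 of the 8 passed (DNMT3B, TET1 and TET3), beside 48.4% of all tested genes.

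**Figure D1:**
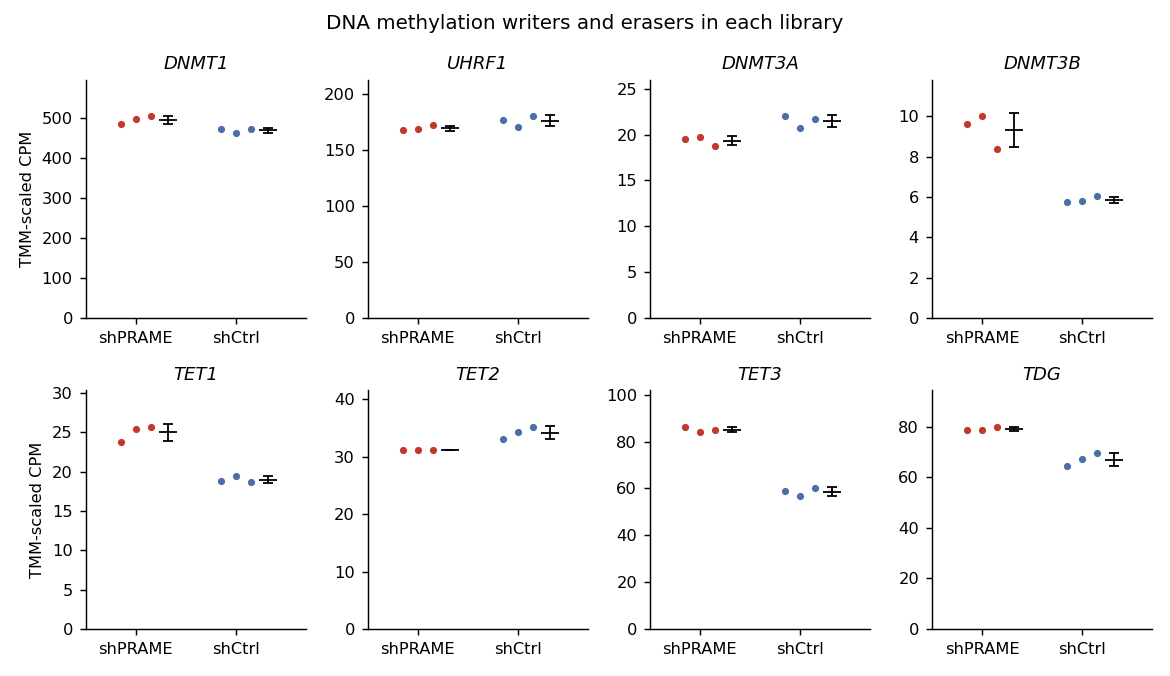
Level of the 8 genes in each library, in TMM-scaled CPM on axes that start at 0. Points are libraries (shPRAME left, shCtrl right) and the bar beside them is the mean with its SD (n = 3); the groups overlap for UHRF1 and are apart for the other 7 genes.

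Maintenance of methylation rests on DNMT1 and UHRF1. DNMT1 (NCBI gene 1786, chromosome 19, 10133346 to 10194953, GRCh38), the maintenance methyltransferase, had 15133, 17103 and 17405 counts in shPRAME and 15981, 15119 and 14516 in shCtrl. Scaled to depth these were 484, 496 and 504 CPM in shPRAME and 473, 463 and 471 CPM in shCtrl. Every shPRAME library lay above every shCtrl library, by a narrow margin. DNMT1 averaged 495 ± 9.92 CPM in shPRAME and 469 ± 5.44 CPM in shCtrl (SD, n = 3 each), an increase of 5.60% with a 95% interval of 2.09% to 9.22% (log2 fold change 0.08, SE 0.0230, edgeR adjusted p = 0.00543). The increase did not pass against a minimum fold of 1.2, and with libraries scaled to their totals alone the log2 fold change was 0.13.

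UHRF1 (NCBI gene 29128, chromosome 19, 4903080 to 4962154), the reader of hemimethylated CpG, had 5227, 5823 and 5933 counts in shPRAME and 5981, 5581 and 5552 in shCtrl. Its levels of 167, 169 and 172 CPM in shPRAME and 177, 171 and 180.1 CPM in shCtrl overlapped. The means were 169 ± 2.30 and 176 ± 4.74 CPM, a difference of -3.70% with a 95% interval of -7.40% to 0.139% (log2 fold change -0.05, SE 0.0267, edgeR adjusted p = 0.0752). The interval holds both no change and a small decrease. Without shCtrl replicate 2 the gene passed (log2 fold change -0.08, edgeR adjusted p = 0.0266). With libraries scaled to their totals alone the log2 fold change was -0.004 (edgeR adjusted p = 0.898). There were 2.90, 2.94 and 2.93 counts of DNMT1 for each count of UHRF1 in shPRAME, against 2.67, 2.71 and 2.61 in shCtrl. This ratio, which does not depend on scaling, was higher in every shPRAME library. As the log2 ratio of UHRF1 to DNMT1 the difference was -0.13 (exact permutation test, 2-sided, p = 0.1, the smallest that 3 against 3 can give).

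The de novo methyltransferases moved in opposite directions. DNMT3B (NCBI gene 1789, chromosome 20, 32762385 to 32809356), which methylates centromeric repeats among other targets, had 300, 345 and 289 counts in shPRAME and 195, 189 and 186 in shCtrl. Its levels were 9.60, 10.01 and 8.37 CPM in shPRAME and 5.77, 5.78 and 6.03 CPM in shCtrl. The lowest shPRAME library, replicate 3, stood well above the highest shCtrl library. DNMT3B averaged 9.33 ± 0.853 CPM in shPRAME and 5.86 ± 0.148 CPM in shCtrl (SD, n = 3 each), an increase of 59.1% with a 95% interval of 38.9% to 82.2% (log2 fold change 0.67, SE 0.0924, edgeR adjusted p = 4.53e-06). It was the least abundant of the 8 in counts, and its interval was the widest.

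DNMT3A (NCBI gene 1788, chromosome 2, 25227874 to 25342590), the other de novo enzyme, had 610, 679 and 648 counts in shPRAME and 744, 676 and 670 in shCtrl. Its levels were 19.5, 19.7 and 18.8 CPM in shPRAME and 22.01, 20.7 and 21.7 CPM in shCtrl. The groups lay close but did not overlap. DNMT3A averaged 19.3 ± 0.494 CPM in shPRAME and 21.5 ± 0.701 CPM in shCtrl, a change of -9.99% with a 95% interval of -16.7% to -2.72% (log2 fold change -0.15, SE 0.0529, edgeR adjusted p = 0.0160). This call was lost in DESeq2 (adjusted p = 0.0543), with scaling to library totals (adjusted p = 0.0970) and without shPRAME replicate 3 (adjusted p = 0.0808).

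The balance of the pair shifted with these changes. There were 2.03, 1.97 and 2.24 counts of DNMT3A for each count of DNMT3B in shPRAME, against 3.82, 3.58 and 3.60 in shCtrl. The shPRAME ratios were all lower than the shCtrl ratios. The log2 ratio of DNMT3B to DNMT3A averaged -1.06 ± 0.0979 in shPRAME and -1.87 ± 0.0511 in shCtrl, a difference of 0.82 (exact permutation test, 2-sided, p = 0.1, the smallest the design allows). DNMT3L, the catalytically inactive partner that stimulates both enzymes in germ cells, had no count in any library. Counts are per gene, so that full-length and shortened forms of either enzyme were not separated.

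The 3 TET genes also split. TET3 (NCBI gene 200424, chromosome 2, 73983631 to 74135498), the TET enzyme that oxidises the paternal genome in the mouse zygote, had 2697, 2900 and 2933 counts in shPRAME and 1995, 1852 and 1861 in shCtrl. Its levels were 86.3, 84.1 and 85.0 CPM in shPRAME and 59.0, 56.7 and 60.4 CPM in shCtrl. The 2 groups were far apart compared with their spread. TET3 averaged 85.1 ± 1.11 CPM in shPRAME and 58.7 ± 1.87 CPM in shCtrl (SD, n = 3 each), an increase of 45.1% with a 95% interval of 38.4% to 52.1% (log2 fold change 0.54, SE 0.0322, edgeR adjusted p = 9.39e-11). The annotated span of BOLA3 overlaps that of TET3. BOLA3 had 887, 1058 and 1037 counts in shPRAME and 773, 720 and 671 in shCtrl, and the sources used here do not say whether counting used strand, so shared reads cannot be told apart.

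TET1 (NCBI gene 80312, chromosome 10, 68560337 to 68694487), which is abundant in embryonic stem cells, had 744, 879 and 888 counts in shPRAME and 636, 636 and 578 in shCtrl. Its levels were 23.8, 25.5 and 25.7 CPM in shPRAME and 18.8, 19.5 and 18.7 CPM in shCtrl. The groups did not overlap, and shPRAME replicate 1 was the nearest to the shCtrl libraries. TET1 averaged 25.01 ± 1.04 CPM in shPRAME and 19.01 ± 0.392 CPM in shCtrl, an increase of 31.7% with a 95% interval of 21.99% to 42.1% (log2 fold change 0.40, SE 0.0521, edgeR adjusted p = 2.50e-06).

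TET2 (NCBI gene 54790, chromosome 4, 105145875 to 105279803), the TET gene most often mutated in blood cancers, had 972, 1076 and 1075 counts in shPRAME and 1117, 1122 and 1086 in shCtrl. Its levels were 31.1, 31.2 and 31.1 CPM in shPRAME and 33.05, 34.3 and 35.2 CPM in shCtrl. The shPRAME libraries were nearly alike and all lay below the shCtrl libraries. TET2 averaged 31.2 ± 0.0518 CPM in shPRAME and 34.2 ± 1.09 CPM in shCtrl, a change of -8.85% with a 95% interval of -14.3% to -3.11% (log2 fold change -0.13, SE 0.0417, edgeR adjusted p = 0.00816). The call was lost with scaling to library totals (adjusted p = 0.0759). The annotated antisense gene TET2-AS1 had 1 count over the 6 libraries.

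Per length, the TET mRNAs together were more abundant in shPRAME and their make-up differed. Their summed level was 13.2, 13.2 and 13.3 CPM per kb of transcript in shPRAME and 10.5, 10.4 and 10.8 CPM per kb in shCtrl. TET3 took 57.4%, 56.0% and 56.1% of TET counts per kb in shPRAME, against 49.6%, 47.6% and 49.2% in shCtrl. TET2 took 23.2%, 23.3% and 23.0% in shPRAME, against 31.1%, 32.3% and 32.1% in shCtrl. The shares of TET3 and TET2 did not overlap between the groups, those of TET1 did (20.3% ± 0.807 in shPRAME, 19.4% ± 0.668 in shCtrl). The differences were 7.72 percentage points for TET3 and -8.69 for TET2 (exact permutation test, 2-sided, p = 0.1 for each, the smallest the design allows, and 0.15 adjusted over the 3 genes) and 0.968 for TET1 (exact p = 0.2).

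**Figure D2:**
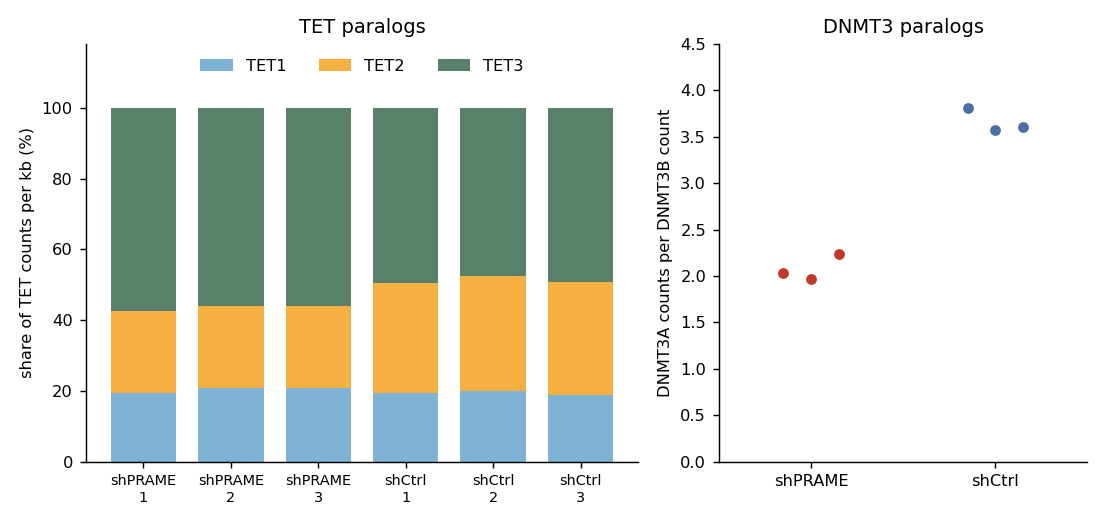
Left, share of TET counts per kb of transcript (%) that TET1, TET2 and TET3 took in each library; right, counts of DNMT3A for each count of DNMT3B, 1 point per library. TET3 takes a larger share in the 3 shPRAME libraries than in the 3 shCtrl libraries, and the DNMT3A to DNMT3B ratio lies near 2 in shPRAME and above 3.5 in shCtrl.

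TDG (NCBI gene 6996, chromosome 12, 103965872 to 103988874), the glycosylase that completes TET-dependent demethylation, had 2463, 2706 and 2759 counts in shPRAME and 2173, 2195 and 2143 in shCtrl. Its levels were 78.8, 78.5 and 79.9 CPM in shPRAME and 64.3, 67.2 and 69.5 CPM in shCtrl. All shPRAME libraries lay above all shCtrl libraries. TDG averaged 79.1 ± 0.740 CPM in shPRAME and 67.0 ± 2.61 CPM in shCtrl (SD, n = 3 each), an increase of 18.1% with a 95% interval of 12.5% to 24.01% (log2 fold change 0.24, SE 0.0331, edgeR adjusted p = 4.39e-06). It did not pass against a minimum fold of 1.2 (adjusted p = 0.705). TDG and TET1 each have a processed pseudogene in GENCODE release 29, TDGP1 and TET1P1, and the sources used here do not say how reads that match both were counted.

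Levels between genes can be compared only per length, here as CPM per kb of the longest protein-coding transcript. On this scale DNMT1 was the most abundant, at 91.5 ± 1.83 CPM per kb in shPRAME and 86.7 ± 1.01 in shCtrl. UHRF1 followed at 39.3 ± 0.534 in shPRAME and 40.8 ± 1.10 in shCtrl, then TDG at 24.3 ± 0.228 and 20.6 ± 0.802. TET3 stood at 7.48 ± 0.0979 CPM per kb in shPRAME and 5.15 ± 0.164 in shCtrl. The maintenance pair thus stood far above the de novo enzymes and the TET genes in both groups. TET2 came next, at 3.06 ± 0.00509 CPM per kb in shPRAME and 3.36 ± 0.107 in shCtrl.

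The last 3 places changed between the groups. In shPRAME TET1 (2.69 ± 0.112 CPM per kb) was followed by DNMT3B (2.15 ± 0.197) and DNMT3A (2.03 ± 0.0519), and the libraries of DNMT3B and DNMT3A overlapped. In shCtrl the order was DNMT3A (2.26 ± 0.0738), TET1 (2.05 ± 0.0422) and DNMT3B (1.35 ± 0.0342), with no overlap between neighbours. The order depends on the transcript length used. With the median length of protein-coding transcripts, DNMT3A stood at 5.39 CPM per kb in shPRAME and 5.98 in shCtrl, above TET2 (3.22 and 3.53), and TDG stood above UHRF1 in shPRAME (57.0 and 52.4).

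**Figure D3:**
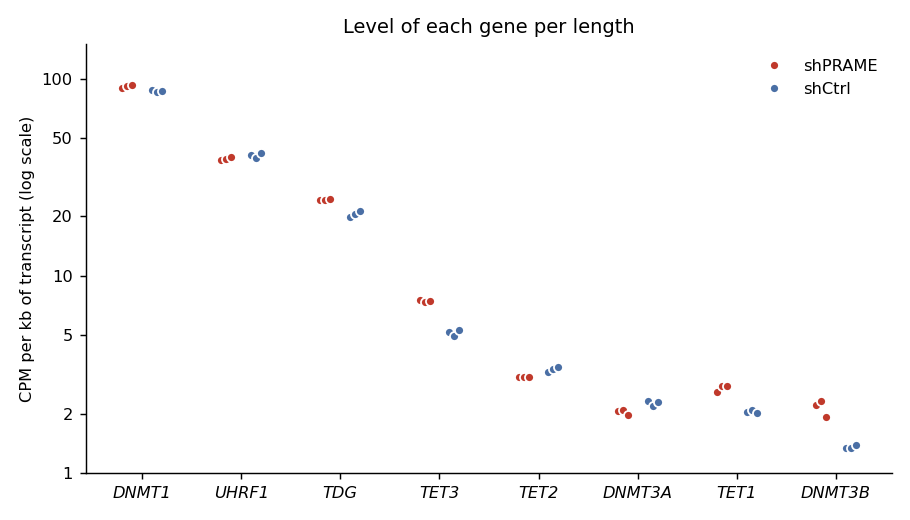
Level of the 8 genes per kb of the longest protein-coding transcript (CPM per kb, log axis), 1 point per library, in the order of the shCtrl means. DNMT1, UHRF1 and TDG lie above 19 CPM per kb, TET3 between 4.98 and 7.58, and the other 4 genes below 3.5.

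Many chromosome regions of these cells shifted as a block between the groups, so each gene was set beside its neighbours, the 50 nearest tested genes on its chromosome. The median log2 fold change of the neighbours was 0.38 around TET2, where 34 neighbours were higher in shPRAME and 4 lower, while TET2 itself was lower. It was 0.26 around DNMT3B (28 higher, 5 lower), which moved the same way as its neighbours, and 0.14 around DNMT3A (26 higher, 11 lower), which moved the other way. Around TET3 it was 0.08, around UHRF1 -0.01, around TET1 -0.04, around DNMT1 -0.05 and around TDG -0.08. A median near 0 stands for neighbours that moved both ways, such as the 19 higher and 20 lower around TET1, not for neighbours that kept their level. Over all tested genes the neighbour median lay between -0.42 at the 5th percentile and 0.41 at the 95th, and its size was over 0.2 for 40.2%. By whole chromosome, the median log2 fold change was 0.45 on chromosome 4 (TET2, 557 tested genes) and 0.18 on chromosome 20 (DNMT3B, 415). It was -0.12 on chromosome 2 (DNMT3A and TET3), -0.09 on 10, -0.05 on 19 and -0.002 on 12. Levels of genes named below are not corrected for region. OGT (log2 fold change -0.40, neighbours -0.47), NSD1 (-0.26 and -0.34) and ZBTB24 (-0.12 and -0.31) moved no further than their neighbours' median. Nor did PCNA (0.17 and 0.30), MAT2A (0.19 and 0.25) and AHCY (0.23 and 0.26), and CHAF1B moved about as far (-0.86 and -0.83). Others differed from their neighbours, such as UHRF2 (0.97 and 0.28) and HELLS (0.21 and -0.07).

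With the neighbours' median taken out as an offset in the fit, the same 7 genes passed in the same directions, beside 71.0% of all tested genes, but the order of sizes changed. The log2 fold change of TET2 was then -0.52 (edgeR adjusted p = 6.57e-09), that of DNMT3A -0.29 (adjusted p = 0.000104), that of DNMT3B 0.41 (adjusted p = 0.000747) and that of DNMT1 0.13 (adjusted p = 0.000117). TET3 stood at 0.46, TET1 at 0.44 and TDG at 0.32, so that DNMT3B was no longer the highest. UHRF1 remained below the threshold at -0.05 (adjusted p = 0.109). The fit took each neighbour median as known, so these adjusted p-values leave out its error. The smaller ones among them are no added evidence for a change. Copy number was not measured here.

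**Figure D4:**
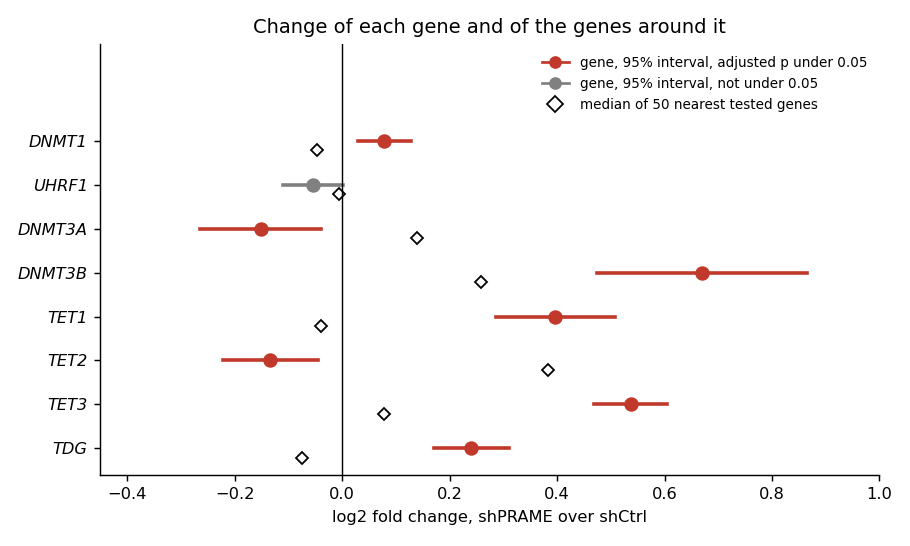
Log2 fold change of each gene, shPRAME over shCtrl, with its 95% interval (circles and bars), and the median log2 fold change of its 50 nearest tested genes (open diamonds). TET2 and DNMT3A lie left of 0 while their neighbours lie right of it; DNMT3B lies at 0.67 with its neighbours at 0.26.

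The promoters of both pairs that split are shown because CpG sites, printed in capitals, are the substrate of these enzymes. Each is the first start listed for the gene by RefSeq (GRCh38.p14), 250 bases before to 50 after it, 5′ to 3′ on the gene's strand: DNMT3A at chr2:25342434-25342733 (minus strand), DNMT3B at chr20:32779602-32779901 (plus), TET2 at chr4:105145625-105145924 (plus) and TET3 at chr2:73984660-73984959 (plus). The same table lists 6 starts for DNMT3A, 1 for DNMT3B, 2 for TET2 and 2 for TET3.
DNMT3A: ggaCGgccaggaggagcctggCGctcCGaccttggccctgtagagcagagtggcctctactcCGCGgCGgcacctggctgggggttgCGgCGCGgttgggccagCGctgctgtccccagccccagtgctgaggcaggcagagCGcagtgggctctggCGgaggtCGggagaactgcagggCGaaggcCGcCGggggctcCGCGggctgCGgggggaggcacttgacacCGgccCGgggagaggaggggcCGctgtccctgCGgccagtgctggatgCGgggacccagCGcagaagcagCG
DNMT3B: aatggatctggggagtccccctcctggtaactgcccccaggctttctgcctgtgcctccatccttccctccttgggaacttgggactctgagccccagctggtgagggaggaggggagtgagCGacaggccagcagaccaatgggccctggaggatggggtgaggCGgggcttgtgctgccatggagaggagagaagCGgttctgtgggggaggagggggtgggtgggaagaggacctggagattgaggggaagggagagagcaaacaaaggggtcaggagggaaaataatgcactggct
TET2: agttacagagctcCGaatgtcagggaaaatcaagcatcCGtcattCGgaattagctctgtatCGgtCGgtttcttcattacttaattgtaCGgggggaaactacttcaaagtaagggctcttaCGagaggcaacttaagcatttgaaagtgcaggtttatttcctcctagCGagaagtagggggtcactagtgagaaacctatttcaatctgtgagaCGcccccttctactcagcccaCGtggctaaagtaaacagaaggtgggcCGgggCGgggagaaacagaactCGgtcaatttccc
TET3: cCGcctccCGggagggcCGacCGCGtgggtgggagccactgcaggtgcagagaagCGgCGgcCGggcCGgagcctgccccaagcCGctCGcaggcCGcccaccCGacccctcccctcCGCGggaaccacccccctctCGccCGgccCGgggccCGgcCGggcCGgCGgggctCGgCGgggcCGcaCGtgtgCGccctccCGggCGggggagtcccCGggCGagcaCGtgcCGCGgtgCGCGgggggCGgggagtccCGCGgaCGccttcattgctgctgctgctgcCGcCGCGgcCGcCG
The window of DNMT3A holds 26 CpG sites, that of DNMT3B 3, that of TET2 13 and that of TET3 45; over the 6 DNMT3A starts the number runs from 18 to 46. Among 35116 RefSeq windows of this length the median is 14, with 1 at the 5th percentile and 42 at the 95th. The numbers depend on the start chosen: the 2 windows of TET2 hold 13 and 35, and those of TET3 hold 45 and 33. The DNMT3B window starts at 32779602, and the annotated span of its gene starts at 32762385. The printed TET3 window starts at 73984660, and the span of its gene at 73983631. Both windows thus lie inside the span, downstream of its first base. No relation to the direction of change is read from the numbers of CpG sites. A GC box (GGGCGG on either strand, in 44.95% of all windows) occurs 3 times in the printed TET3 window, once in that of TET2 and in neither of the DNMT3 windows printed. At the other start listed, TET2 has 5 and TET3 has 1. The E2F motif TTTNGCGC, on either strand, is in 1.79% of all windows. It occurs once in the single DNMT1 window and once in 1 of 3 UHRF1 windows, and in no window of the other 6 genes. These are matches of letters and not mapped sites.

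The genes with the most similar pattern over the 6 libraries were looked for among 10338 protein-coding tested genes with a mean of at least 5 CPM, by the root mean squared difference of mean-centred log2 CPM. The nearest were CPSF7 for DNMT1, SZRD1 for UHRF1, ERF for DNMT3A, TAF8 for DNMT3B, ZNG1A for TET1, BCLAF1 for TET2, PPM1D for TET3 and RFC3, a subunit of the clamp loader of replication, for TDG. The difference ranged from 0.00677 (TET2) to 0.0375 (DNMT3B). With 6 libraries in 2 groups, this likeness is mostly a like difference between the groups. PPM1D, for instance, averaged 37.5 ± 0.434 CPM in shPRAME and 26.0 ± 0.811 CPM in shCtrl, a log2 fold change of 0.53 beside 0.54 for TET3.

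Partners of the writers moved in both directions. Of 16 listed genes 15 were tested, of which 9 rose, 2 fell and 4 did not pass, with a median log2 fold change of 0.21. The share that passed, 73.3%, is near the 74.4% of all tested genes, and the counts of the lists that follow stand beside the same 74.4%. UHRF2, the paralog of UHRF1, rose to 41.6 ± 1.83 CPM in shPRAME, against 21.2 ± 0.467 CPM in shCtrl (log2 fold change 0.97, edgeR adjusted p = 4.48e-12). UHRF1 thus did not pass while its paralog was nearly 2-fold higher. The remodeller gene HELLS, needed for methylation of repeats, rose to 107 ± 4.62 CPM, against 92.3 ± 2.00 CPM in shCtrl, and PCNA, the replication clamp that DNMT1 binds, to 256 ± 6.05 CPM, against 227 ± 4.32. CDCA7L, a relative of the HELLS activator CDCA7, had 2623 counts over the shPRAME libraries and 31 over the shCtrl libraries (26.1 ± 1.03 and 0.318 ± 0.122 CPM). CDCA7 itself (46.7 ± 2.16 and 48.0 ± 1.80 CPM, adjusted p = 0.377) and USP7, a deubiquitinase of DNMT1 and UHRF1 (224 ± 3.65 and 220.2 ± 1.07 CPM, adjusted p = 0.334), did not pass.

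NSD1 and NSD2, histone methyltransferases that mark DNMT3A targets with H3K36me2, moved apart. NSD2 rose to 244 ± 3.03 CPM in shPRAME, against 133 ± 1.67 CPM in shCtrl, and NSD1 fell to 141 ± 4.40 CPM, against 169 ± 3.29 CPM. Their regions moved apart as well. The neighbours' median log2 fold change was 0.52 beside 0.87 for NSD2, and -0.34 beside -0.26 for NSD1. ZBTB24, a zinc finger gene mutated in the same immunodeficiency syndrome as DNMT3B, fell to 25.9 ± 0.145 CPM, against 28.2 ± 1.02 CPM in shCtrl (adjusted p = 0.0280). With any library but shCtrl replicate 1 left out, 1 partner was lower in place of 2.

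Downstream of TDG, base excision repair genes and TET partners split, with 9 of 17 tested higher, 5 lower and 3 that did not pass (median log2 fold change 0.13). APEX1, the endonuclease that cuts the abasic site TDG leaves, rose to 142 ± 2.43 CPM in shPRAME, against 87.1 ± 2.51 CPM in shCtrl, and the glycosylase gene NEIL2 to 36.0 ± 0.634 CPM, against 18.7 ± 1.06. XRCC1, the scaffold of the ligation step, fell to 32.1 ± 0.836 CPM, against 45.6 ± 2.28 CPM, and OGT, the glycosyltransferase that binds TET2 and TET3, to 151 ± 4.83 CPM, against 199.999 ± 5.001. MBD4, the other thymine glycosylase of CpG sites, did not pass (34.1 ± 0.262 CPM in shPRAME, 35.6 ± 0.870 CPM in shCtrl, adjusted p = 0.159).

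All 14 tested genes of methyl donor supply passed, 7 higher and 7 lower (median log2 fold change 0.05), beside 37.7% of all tested genes higher and 36.8% lower. MAT2A, which makes the S-adenosylmethionine that the writers use, rose to 419 ± 1.68 CPM in shPRAME, against 368 ± 5.76 CPM in shCtrl, and AHCY, which clears the product S-adenosylhomocysteine, to 141 ± 5.24 CPM, against 120.2 ± 3.27. Methionine synthase, MTR, rose to 283 ± 8.40 CPM, against 202 ± 4.62 CPM in shCtrl, and MTAP, the methionine salvage enzyme, to 216 ± 7.88 CPM, against 129 ± 5.38. MTRR, which reactivates methionine synthase, fell to 43.9 ± 0.839 CPM, against 71.1 ± 1.42 CPM in shCtrl. NNMT, which uses up methyl groups on nicotinamide, fell to 2.53 ± 0.239 CPM, against 11.4 ± 0.486 CPM (log2 fold change -2.17, edgeR adjusted p = 3.12e-12).

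TET enzymes need 2-oxoglutarate and are inhibited by succinate and fumarate. Of 10 genes of that metabolism 2 rose, 4 fell and 4 did not pass (median log2 fold change 0.02). Both that rose make 2-oxoglutarate: IDH1 reached 165 ± 2.66 CPM in shPRAME, against 117.5 ± 4.91 CPM in shCtrl, and IDH2 39.8 ± 1.38 CPM, against 24.5 ± 0.294. SDHB, a subunit of succinate dehydrogenase, fell to 52.6 ± 1.30 CPM, against 85.3 ± 1.76 CPM, and OGDH, which consumes 2-oxoglutarate, to 106 ± 4.51 CPM, against 132 ± 1.52. With libraries scaled to their totals alone 5 of the 10 were higher and 2 lower, so the balance of this list depends on scaling.

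Among 12 readers of CpG sites 6 fell, 1 rose and 5 did not pass (median log2 fold change -0.07). The 58.3% that passed is below the 74.4% of all tested genes, and against a minimum fold of 1.2 only 1 reader was lower. ZBTB33, the methyl-CpG binding factor Kaiso, fell to 34.7 ± 0.557 CPM in shPRAME, against 71.6 ± 2.27 CPM in shCtrl. CXXC1, which binds unmethylated CpG, rose to 35.4 ± 2.76 CPM, against 26.6 ± 1.46 CPM in shCtrl. ZBTB33 lies on chromosome X, and the median log2 fold change of its neighbours was -0.56.

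Imprinted genes, whose parental expression is set by DNA methylation, included several that were near 0 in shCtrl and higher in shPRAME. Of 23 listed genes 14 were tested and 7 had no count in any library. Of those tested 11 rose, 2 fell and 1 did not pass, and 9 rose at least 2-fold, as did 1616 of all 15954 tested genes. A gene near 0 in one group can pass the filter on low counts through the other group alone, so these counts describe the genes that passed and are no measure of the whole list. INPP5F rose to 506 ± 14.4 CPM in shPRAME, against 195 ± 6.75 CPM in shCtrl, and GNAS to 823 ± 5.42 CPM, against 369 ± 3.58, but only some transcripts of either gene are imprinted. IGF2R fell to 198 ± 4.08 CPM in shPRAME, against 327 ± 3.49 CPM, and KCNQ1OT1, a noncoding RNA read from the unmethylated allele, to 264 ± 11.1 CPM, against 404 ± 7.34 CPM in shCtrl. Whether IGF2R is imprinted in these cells was not measured. The median log2 fold change of its neighbours was -0.47, beside -0.72 for IGF2R. Further genes are named after their values were seen. CDKN1C, which the KCNQ1OT1 domain silences on the paternal allele, rose to 12.9 ± 0.691 CPM, against 1.33 ± 0.143. NDN rose to 18.1 ± 1.42 CPM, against 1.02 ± 0.141, H19 to 10.6 ± 0.874 CPM, against 1.44 ± 0.107, and SGCE to 36.8 ± 1.95 CPM, against 4.18 ± 0.152 CPM in shCtrl. SGCE and PEG10 share an imprinted promoter region, and PEG10 rose as well (3.41 ± 0.140 CPM in shPRAME, 0.840 ± 0.110 CPM in shCtrl). Of 3 genes that protect imprints, ZFP57 rose to 11.6 ± 0.508 CPM, against 3.82 ± 0.205, while its corepressor TRIM28 fell to 469.7 ± 13.9 CPM, against 545 ± 6.99, and ZNF445 to 40.4 ± 0.202 CPM, against 55.0 ± 1.14 CPM in shCtrl. Alleles were not separated.

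Germline genes that promoter methylation silences in somatic cells, as shown mostly in the mouse, stayed near 0. None of 16 passed the filter on low counts, and 10 had no count in any library. Summed over the list the level was 0.192 to 0.290 CPM in shPRAME and 0.0324 to 0.122 CPM in shCtrl. HORMAD1, named after its values were seen, had 14 counts over the shPRAME libraries and 0 over the shCtrl libraries.

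**Figure D5:**
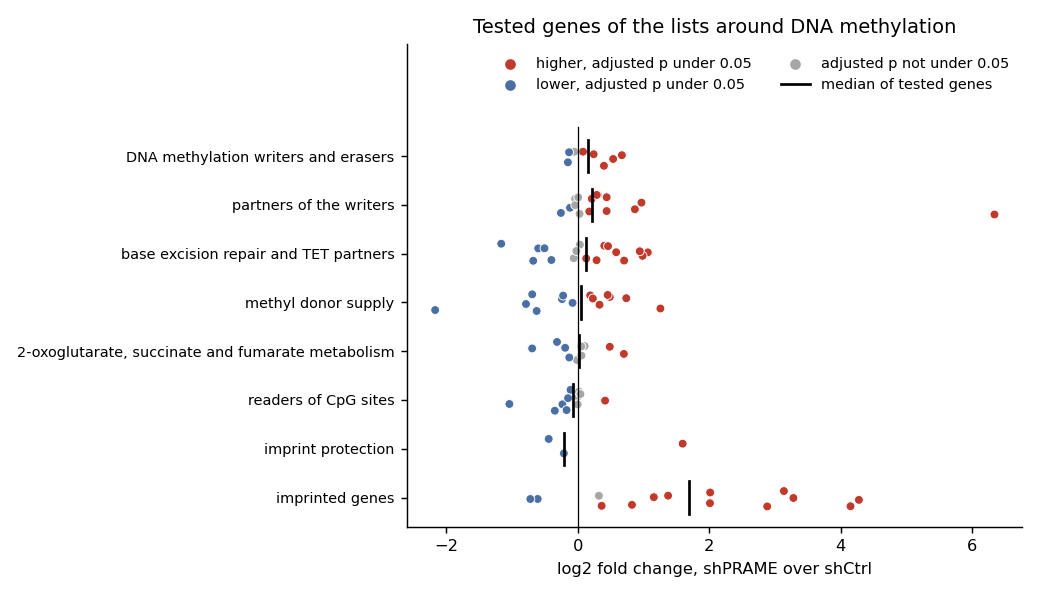
Log2 fold change, shPRAME over shCtrl, of every tested gene of 8 lists, 1 point per gene, coloured by whether it was called higher or lower; the black bar is the median of the tested genes. The 8 writers and erasers lie between -0.15 and 0.67, and imprinted genes that passed the filter on low counts reach past 4.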

How the data were processed

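The authors deposited 1 file per library with whole-number counts per NCBI gene identifier, not normalized, per the file headers. Per the submitters' processing notes, the builds were GRCh38 and hg38 and the tools Salmon, STAR and fastp, without versions or roles; for counter, annotation release and strand setting the sources used here give nothing. Each file had 40929 rows; 34 repeated identifiers were added together, which left 40895, of which 40789 matched RefSeq (GRCh38.p14) for symbols and coordinates. Transcript lengths came from GENCODE release 29. Depth was 30842788 to 34107332 counts per library, and intervals and floors cover counting error or the spread between libraries only.

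The test was that of edgeR 4.0.16 under R 4.3.3 (filterByExpr, TMM, glmQLFit, glmQLFTest, 2-sided, group as the only term, Benjamini-Hochberg adjustment over 15954 genes, threshold 0.05), tested on simulated data beforehand. Levels are TMM-scaled CPM, mean ± SD of 3 libraries; the SE is the log2 fold change over the root of F, and the 95% interval uses the residual degrees of freedom of that test. Alternatives used limma 3.58.1 and DESeq2 1.42.0 among others. Tables and figures were made with Python 3.11.15. Each library was taken as 1 sample. Replicate pairs, scaled by their totals, differed by more than counting noise (chi-square per gene 2.48 to 8.20). The spread between replicates in the edgeR fit, as a common coefficient of variation, was 3.11%. Neither value shows whether the replicates were separate cultures or transductions.

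The 8 genes and all lists were chosen with earlier results of these data known. The text names the 8 genes, the gene nearest to each in pattern, up to 4 genes per list (per direction the 2 with the lowest adjusted p, given a mean of 1 CPM or more), a set of partner genes picked by role, and the 2 highest cell type markers of a list. Some genes that the rule names are not reported here.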

Additional observations from a re-analysis of the deposited data

How the results depend on the processing

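Of 120 recomputed log2 fold changes of the 8 genes none changed direction. Those of the minimum fold setting repeat the main estimate and could not change direction, and the rest come from the same libraries. Of the 120, 111 kept their side of the threshold, 8 lost the call and 1 gained it. Against a minimum fold of 1.2, 3 of the 8 were higher and 0 lower, beside 3921 and 3805 of all genes; partners of the writers gave 5 and 0, S phase genes 6 and 4, and the lower counts were 4 for methyl donor supply, 2 for 2-oxoglutarate metabolism, 1 for readers, 3 for cancer-testis antigens and 1 for imprint protection. Scaling to library totals left 0 of the 8 lower, 1 partner lower, 5 genes of 2-oxoglutarate metabolism higher and 2 lower, and 2 readers higher. DESeq2 left 1 of the 8 and 1 partner lower, and no filter on low counts gave 1 partner lower and 1 germline gene higher. With the regional shift removed 4 genes of 2-oxoglutarate metabolism, 3 readers and 9 cancer-testis antigens were higher, and 3 cancer-testis antigens lower. Leaving out each library, the counts lower ranged from 1 to 3 for the 8 genes and from 1 to 2 for the partners; the 1 was without shPRAME replicate 3, where DNMT3A lost its call, and the 3 without shCtrl replicate 2, where UHRF1 gained one. The cause of these differences was not tested.

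Replicate numbers are shared between the groups, but same-numbered libraries did not deviate together (correlations of -0.20 to -0.12, against 0.03 to 0.13 for other pairs), and 0 of 6 libraries correlated best with its own number. With the replicate number as a block, 5 of the 8 genes were higher and 2 lower, no call among them changed, and DNMT3A had a log2 fold change of -0.15 (edgeR adjusted p = 0.0262). Depth limits DNMT3B most, with 186 to 345 counts per library.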

Other observations

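DNMT1 and UHRF1 are replication-coupled genes, and S phase genes moved in both directions. Of 22 tested, 12 rose, 7 fell and 3 did not pass, with a median log2 fold change of 0.10, beside 0.08 for DNMT1 and -0.05 for UHRF1. TYMS, thymidylate synthase, rose to 465 ± 9.99 CPM in shPRAME, against 183 ± 6.54 CPM in shCtrl, and RRM1, the large subunit of ribonucleotide reductase, to 279 ± 8.09 CPM, against 175 ± 5.33. Its small subunit RRM2 fell to 259 ± 8.86 CPM, against 346 ± 8.81 CPM in shCtrl, and CHAF1B, a subunit of the chromatin assembly factor that follows the fork, to 20.1 ± 1.56 CPM, against 36.6 ± 1.177.

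Cancer-testis antigens, many of which are switched on by inhibitors of DNA methyltransferases, also split. Of 13 tested 5 rose and 6 fell, and the 5 that rose and 3 of the 6 that fell changed at least 2-fold. Among all 15954 tested genes 1616 rose and 1345 fell at least 2-fold. Some that rose had few or no counts in shCtrl and passed the filter on low counts through the shPRAME libraries. PAGE2 had 5166 counts over the shPRAME libraries and 0 over the shCtrl libraries, and MAGEC2 rose to 68.9 ± 0.914 CPM, against 7.27 ± 0.505. MAGEA10 fell to 0.690 ± 0.0953 CPM in shPRAME, against 38.4 ± 0.467 CPM in shCtrl, and PASD1 had 9 counts over the shPRAME libraries and 3028 over the shCtrl libraries. MAGE and PAGE genes have near-identical copies, so reads may be split among them.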
